A study of Rattus norvegicus with 52 samples.

Results

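The genes described here make and use glutathione, a small thiol that cells spend on peroxides and reactive chemicals, and thioredoxin, a small protein that reduces disulfides, or belong to the Nrf2 pathway that controls many of them. Members were taken by gene symbol from the count tables and not by any measured value: every glutathione transferase of the alpha, kappa, mu, omega, pi, sigma, theta and zeta classes and of the microsomal family (Mgst), glutathione peroxidase (Gpx), peroxiredoxin (Prdx), thioredoxin (Txn) and thioredoxin reductase (Txnrd) whose symbol fitted the family name and a number, together with Nqo1, Hmox1, Gclc, Gclm, Gss, Gsr, Srxn1, Nfe2l2, Keap1, Cat, Sod1 and Sod2. This gave 55 of 17356 genes. By role they were 21 cytosolic glutathione transferases, 3 microsomal transferases, 8 glutathione peroxidases, 7 peroxiredoxins and sulfiredoxin together, 5 thioredoxins and reductases, 4 genes of glutathione synthesis and reduction, 3 superoxide dismutases and catalase, and Nfe2l2, Keap1, Nqo1 and Hmox1. Of these, 49 passed the filter on low counts in at least 1 comparison, while Gpx5, Gpx6, Gsta2, Gsta5, Gstm3 and Gstt4 passed in none.

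Nrf2, encoded by Nfe2l2, is a transcription factor that Keap1 holds in the cytoplasm and marks for degradation. Oxidants and electrophiles modify Keap1, Nrf2 then accumulates and binds antioxidant response elements as a heterodimer with small Maf proteins, and genes such as Nqo1, Hmox1, Gclc, Gclm, Txnrd1 and Srxn1 are classical targets. Its activity is set largely at the level of the protein, so that the mRNA of Nfe2l2 need not follow it.

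RNA had been sequenced from mammary cells sorted by flow cytometry. Female ACI rats, a strain that develops mammary tumors under estrogen, were wild type (Cdkn1b+/+, WT) or lacked p27, the cyclin-dependent kinase inhibitor encoded by Cdkn1b (Cdkn1b-/-, KO). The KO alleles were CRISPR-Cas9 deletions in the first coding exon, made in Sprague-Dawley zygotes and bred into ACI, with early and later backcross generations both used for sorted cells and the labels not giving which. WT and KO rats both came from crosses of heterozygotes. At 9 weeks, 16 libraries came from basal cells (Cd24+ Cd29HIGH), mature luminal cells (Cd24+ Cd29LOW Cd49b- PNA-) and luminal progenitors (LP) sorted as Cd49b+ or as PNA+ (peanut agglutinin binding), with 2 libraries per sort and genotype and therefore 4 LP libraries per genotype. Younger rats gave basal and luminal (Cd24+ Cd29LOW) cells, in 11 libraries labelled 4 weeks (WT 3 basal and 3 luminal, KO 2 and 3) and 9 labelled 6 weeks (WT 3 and 2, KO 2 and 2). A further 12 libraries held basal and luminal cells of control rats, with an empty implant by the study's methods, and rats with an implant releasing estradiol (E2) for 3 weeks from 9 weeks of age, with 2 ACI libraries and 1 Brown Norway (BN) library per treatment and cell type, and the BN titles carried the numbers of 2 animals. The titles of the luminal libraries of this experiment carried CD49b_PNA_LUM and do not say which luminal fraction was sorted. These cells may therefore differ from the luminal cells of 4 and 6 weeks. The genotype comparisons ask what loss of p27 changes in each cell type, and the E2 and strain comparisons ask the same of the hormone and of susceptibility to tumors.

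Levels are given as CPM, counts scaled to a common library total with TMM factors, within each of these 3 experiments (9 weeks, 4 and 6 weeks, E2), and are compared only for the same gene. Log2 fold changes are given with their standard error (±) where one is printed, a value in parentheses beside a gene with no unit is a log2 fold change, and adjusted p-values come from the quasi-likelihood test of edgeR, corrected by the Benjamini-Hochberg method across every gene tested. The libraries held 21545344 to 33859550 counts at 9 weeks, 14674040 to 23045345 at 4 weeks, 7985619 to 16390460 at 6 weeks and 13659389 to 25280421 in the E2 experiment. Cdkn1b separated the labels at 9 weeks, where WT libraries had 6.14 to 15.7 CPM and KO libraries 1.80 to 4.61 CPM. It did not at 4 weeks (WT 14.3 to 41.4, KO 5.19 to 18.8 CPM) or at 6 weeks (WT 3.48 to 43.9, KO 10.2 to 36.7 CPM), so the younger groups are named by their labels. Summed CPM of 9 basal markers was 15500 to 21200 in WT basal and 242 to 254 in WT mature luminal libraries of 9 weeks, in the direction of the sort. The sum of 7 hormone-sensing luminal genes was 252 to 301 CPM in WT mature luminal and 414 to 554 CPM in WT LP libraries, with Tnfsf11 at 0 in these libraries, so this list did not mark the cells labelled mature luminal. At 6 weeks, the libraries labelled KO luminal 2 and WT basal 3 stood apart, with the most unassigned reads (76.2% and 77%) and the fewest genes of at least 10 counts (8160 and 8970) of that age, and counts that rest on them are given with and without them. In the E2 experiment, ACI basal library 1 with E2 had the fewest genes of at least 10 counts of all libraries (7126), and ACI luminal library 1 with E2 had 8213 such genes and 74.7% unassigned reads. Several alpha, mu and theta transferases are close paralogs, and Prdx1, Txn1, Sod1, Gstp1 and Gpx4 have processed pseudogenes in rodents. Of all reads, 47.1% to 77% per library were not assigned to a gene, so values of these genes may hold or miss shared reads. In sorted bulk samples, fewer cells of a type and less RNA per cell cannot be told apart. Not all labels say that the libraries of a group came from separate animals, and the p-values measure only the spread between these libraries.

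In LP of 9 weeks, 3 members were higher in KO than in WT and none was lower, among 48 tested, where 2.12% of all 12809 genes were called higher and 1.29% lower. They were Gsta1, an alpha-class glutathione transferase, Gclm, the modifier subunit of the enzyme that limits glutathione synthesis, and Prdx1, a cytosolic peroxiredoxin. The median log2 fold change of the 48 members was 0.20, beside 0.03 over all genes. Values in LP are listed as Cd49b+ libraries 1 and 2 followed by PNA+ libraries 1 and 2. Gsta1 had 105, 212, 171 and 344 CPM in KO and 22.7, 5.88, 27.03 and 4.76 CPM in WT. Every KO library lay above every WT library, and the spread within each genotype followed the library number, with number 2 high in KO and low in WT. The log2 fold change of Gsta1 was 3.79 ± 0.75 (adjusted p = 0.0152). Gclm had 52.7, 36.9, 46.5 and 41.6 CPM in KO and 26.6, 26.6, 25.6 and 28.1 CPM in WT (log2 fold change 0.73 ± 0.15, adjusted p = 0.0209). The WT libraries of Gclm lay close together, and the groups did not overlap. Prdx1 had 399, 365, 476 and 429 CPM in KO and 239, 266, 251 and 247 CPM in WT, again without overlap (log2 fold change 0.73 ± 0.17, adjusted p = 0.0314).

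The KO and WT libraries of LP did not overlap for 6 members, all higher in KO, where 7.43% of all genes lay wholly higher in KO and 5.74% wholly lower. Beside the called genes these were Cat, the catalase of peroxisomes, Sod2, the mitochondrial superoxide dismutase, and Txnrd2, the mitochondrial thioredoxin reductase. Cat had 512, 258, 364 and 347 CPM in KO and 186, 228, 191 and 222 CPM in WT, with an adjusted p of 0.0564. Sod2 had 1240.0, 1688, 1092 and 1764 CPM in KO and 789, 829, 721 and 728 CPM in WT, with an adjusted p of 0.0658. Neither passed the threshold. The negative values nearest to it were those of Prdx6, a peroxiredoxin with a single active cysteine, at -0.45 ± 0.14 (adjusted p = 0.107), and Gpx3, the secreted glutathione peroxidase, at -1.31 ± 0.56 (adjusted p = 0.229). By role, all 3 superoxide dismutases and catalase and all 4 genes of glutathione synthesis and reduction had positive values, against 1 of 6 glutathione peroxidases.

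Of the regulators and classical targets of the Nrf2 pathway, Gclm was the member called in LP. Nqo1, the quinone reductase, had 10.7, 20.3, 8.21 and 9.01 CPM in KO and 14.8, 21.4, 10.3 and 17.01 CPM in WT (log2 fold change -0.40 ± 0.38, adjusted p = 0.629). Hmox1, the inducible heme oxygenase, had 504, 554, 529 and 339 CPM in KO and 496, 821, 395 and 757 CPM in WT (log2 fold change -0.36 ± 0.34, adjusted p = 0.624). Both sets of libraries overlapped. Gclc, the catalytic partner of Gclm, had 88.1, 86.2, 74.3 and 88.7 CPM in KO and 52.9, 80.8, 43.4 and 72.0 CPM in WT (log2 fold change 0.44 ± 0.27, adjusted p = 0.417). Txnrd1, the cytosolic thioredoxin reductase, had 558, 464, 459 and 371 CPM in KO and 230.0, 423, 179 and 377 CPM in WT (log2 fold change 0.61 ± 0.35, adjusted p = 0.378). For both genes, the WT libraries numbered 2 reached or came near the KO range and those numbered 1 did not. Srxn1, the sulfiredoxin that repairs over-oxidized peroxiredoxins, had 341, 107, 326 and 128 CPM in KO and 72.1, 211, 75.7 and 203 CPM in WT (log2 fold change 0.68 ± 0.59, adjusted p = 0.584). Its libraries split by number and in opposite directions: number 1 was the high library in KO and the low one in WT, in both LP sorts. For the regulators themselves, Nfe2l2 had 176, 246, 131 and 186 CPM in KO and 180.4, 222, 148 and 200.4 CPM in WT (log2 fold change -0.02 ± 0.21, adjusted p = 0.971), and the direction of this value changed with the libraries used. Keap1 had 30.0, 29.4, 41.1 and 34.1 CPM in KO and 31.0, 24.9, 34.0 and 25.3 CPM in WT (log2 fold change 0.22 ± 0.19, adjusted p = 0.566).

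The 3 calls in LP rest on counting Cd49b+ and PNA+ libraries of the same genotype and number as separate samples, and those libraries were correlated in their deviations from the group means. With the 2 LP libraries of a number summed, no member passed and the log2 fold change of Gsta1 was 3.75 (adjusted p = 0.482). No member passed in PNA+ libraries alone (Gsta1 4.02, adjusted p = 0.206) or in Cd49b+ libraries alone (Gsta1 3.47, adjusted p = 0.79). Leaving out each LP library in turn gave 0 to 7 called members, with Gsta1 between 3.43 and 4.23, and 0 were called without WT Cd49b+ library 2 or WT PNA+ library 2, 1 without library 1 of any LP sort of either genotype, and 7 without KO Cd49b+ library 2. With the number as a block, 5 members and 5.24% of all genes passed. Markers of other cell states differed with the genotype of LP without overlap: the summed level of 6 milk genes was 91900 to 200000 CPM in KO and 18200 to 55000 CPM in WT, that of 10 proliferation genes 51.1 to 88.7 and 14.0 to 39.9 CPM, and that of 7 genes of hormone-sensing luminal cells 244 to 343 and 414 to 554 CPM. A list of 15 stress genes that rise when tissue is dissociated, added after values were seen, summed to 23300 to 29200 CPM in KO and 31100 to 36200 CPM in WT LP. None of the milk, proliferation or stress genes was at 0 in either group. The sum of 9 basal markers overlapped, at 329 to 2540 CPM in KO and 354 to 937 CPM in WT LP. The part of these lists in the result was not tested.

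**Figure D1:**
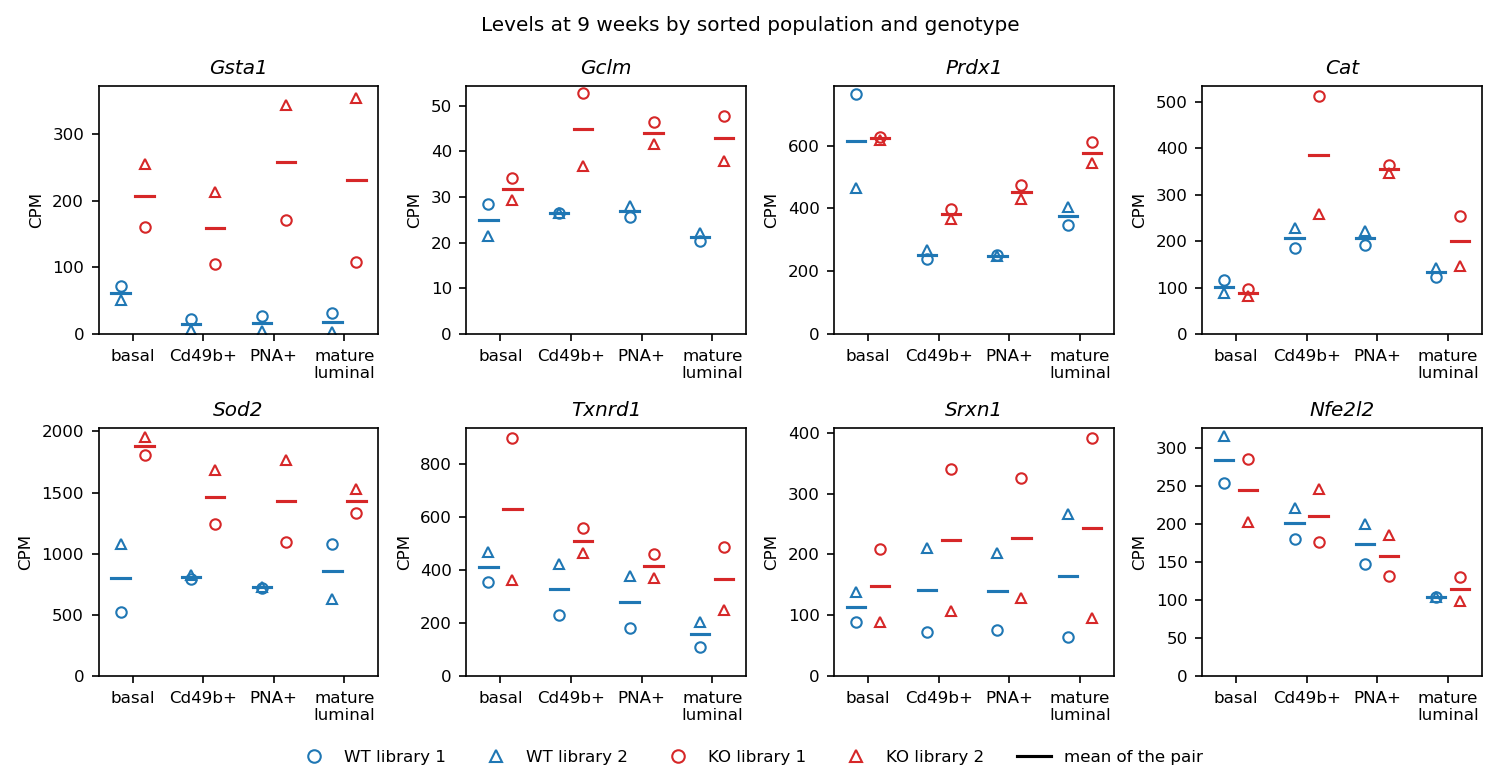
Levels (CPM, linear axis from 0) of 8 members in each library of 9 weeks, by sorted population, with WT in blue, KO in red, circles for library 1, triangles for library 2 and a bar for the mean of each pair. Gsta1 lies at 105 to 344 CPM in the 4 KO LP libraries and at 4.76 to 27.03 CPM in the 4 WT LP libraries, while Nfe2l2 overlaps between genotypes.

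In basal cells of 9 weeks, no member passed between genotypes, where 0.0546% of all genes did. At an unadjusted p under 0.05 there were 4 members and 9.09% of all genes. The Wald test of DESeq2 called no member either. Sod2 had 1805 and 1956 CPM in KO and 523 and 1078 CPM in WT (log2 fold change 1.23 ± 0.36, adjusted p = 0.347). Gpx4, the glutathione peroxidase that reduces lipid peroxides in membranes, had 388 and 469.8 CPM in KO and 214 and 278 CPM in WT (log2 fold change 0.80 ± 0.28, adjusted p = 0.41). The groups of both genes did not overlap. The negative values of lowest p were small: Gss, glutathione synthetase, had 131 and 170.2 CPM in KO and 207 and 151 CPM in WT (log2 fold change -0.25 ± 0.30, adjusted p = 0.859). Gsto2, an omega-class transferase, had 0.296 and 0.195 CPM in KO and 0.362 and 0.353 CPM in WT (log2 fold change -0.53 ± 0.65, adjusted p = 0.861). The libraries of Gss overlapped and those of Gsto2 did not. KO libraries lay wholly above WT for 17 members and wholly below for 1, where 20.1% of all genes lay above and 16.9% below. Marker sums of other cells lay the same way without overlap, and their part was not tested: 6 milk genes summed to 25900 to 30500 CPM in KO and 4170 to 5990 CPM in WT, 14 myeloid markers to 522 to 624 and 148 to 379 CPM, 6 adipocyte markers to 349 to 469 and 132 to 194 CPM, and 7 Schwann cell markers to 585 to 694 and 261 to 466 CPM. The lymphoid, erythroid, luminal and basal marker sums were also higher in both KO libraries.

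In mature luminal cells of 9 weeks, 0.133% of all genes and no member passed. At an unadjusted p under 0.05 there were 8 members and 7.15% of all genes. The Wald test of DESeq2 called 2 members higher, and 1.52% of all genes. Gclm had 47.7 and 38.0 CPM in KO and 20.4 and 22.0 CPM in WT (log2 fold change 1.01 ± 0.22, adjusted p = 0.15). Gsta1 had 107 and 354 CPM in KO and 31.1 and 3.45 CPM in WT (log2 fold change 3.74 ± 1.05, adjusted p = 0.305). Both were higher in each KO library. Gpx3 had 202 and 50.1 CPM in KO and 268 and 609.9 CPM in WT (log2 fold change -1.80 ± 0.80, adjusted p = 0.664). Gpx8, a peroxidase of the endoplasmic reticulum, had 2.71 and 0.884 CPM in KO and 5.84 and 4.77 CPM in WT (log2 fold change -1.57 ± 0.81, adjusted p = 0.757). These KO libraries lay below both WT libraries. KO lay wholly above WT for 12 members and wholly below for 6, where 15.7% and 13.9% of all genes did. Summed milk genes (134000 to 161000 against 41800 to 80200 CPM), proliferation genes (26.9 to 54.7 against 11.9 to 22.3 CPM) and erythroid markers (3.73 to 8.33 against 3.46 to 3.70 CPM) were higher in KO, and stress genes of dissociation lower (29300 to 31200 against 46100 to 49800 CPM), without overlap, and their part was not tested.

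Tests of the difference itself found no gene whose genotype effect in LP differed from that in mature luminal cells (224 genes, 1.75% of all, and no member at an unadjusted p under 0.05) or from that in basal cells (926 genes, 7.23%, and 3 members), and DESeq2's Wald test called no member in either. The members of lowest p against mature luminal cells were Mgst1, a microsomal transferase (0.43 ± 0.28), and Prdx4, the peroxiredoxin of the endoplasmic reticulum (0.56 ± 0.50), among positive differences, and Nqo1 (-0.94 ± 0.67) and the mu-class transferase Gstm1 (-0.77 ± 0.71) among negative ones, with an adjusted p of 1 for all 4. Against basal cells they were Cat (1.05 ± 0.38, adjusted p = 0.611), Prdx1 (0.71 ± 0.29, adjusted p = 0.644), Gstm1 (-1.57 ± 0.69, adjusted p = 0.671) and Prdx6 (-0.52 ± 0.24, adjusted p = 0.691). These comparisons share the LP libraries. The higher values of Gsta1 and Gclm in KO LP are thus not shown to be particular to LP.

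Of 51 other genes of these pathways tested in LP, taken from a list of 52 glutathione, thioredoxin and Nrf2 genes, 3 were higher in KO and 2 lower, where 2.12% and 1.29% of all genes were. Their median log2 fold change was 0.12, beside 0.03 over all genes. These calls too count Cd49b+ and PNA+ libraries of the same number as separate samples, and they were not repeated with those libraries summed. Me1 (1.35) and Idh1 (1.43), which make NADPH, and Ggt6 (1.43), of the gamma-glutamyltransferase family, were higher, while the transporters Abcc1 (-0.88) and Abcc4 (-1.38), members of the multidrug resistance protein family, were lower.

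The 3 members called in LP share a short element in their promoters, and it is printed here with the same element of some other members. RefSeq promoters of the GRCr8 assembly, from 250 bases before to 50 after the start of each gene, matched 48 of the 55 members. The letters TGACNNNGC, the core of the antioxidant response element, were searched on both strands and found in 15 of these 48 promoters (31.2%), in 4038 of 33469 promoters of the table (12.1%) and in 1719 of 12310 promoters of genes in the count tables (14%). A match is a description of letters and not a site of binding. The 9 bases of the element stand in capitals, read 5′ to 3′ on the strand named. The match of Prdx1, like that of Gstp1, overlaps the letters TGACTCA, which AP-1 factors bind. The elements of Gsta1 and Gsta3, a neighbouring alpha-class gene, have nearly the same flanking bases and lie on opposite sides of the start, 30 bases after it in Gsta1 and 17 before it in Gsta3. Among the classical targets that the results below turn on, Gclm and Txnrd1 held the element in this window and Nqo1, Gclc and Srxn1 did not, and Hmox1 was not among the matched promoters.
Gsta1, chr9:31216484-31216512, minus strand: aactcaggcaTGACTTTGCatttttcttc
Gsta3, chr9:31154962-31154990, plus strand: aactcaggcaTGACTTCGCattttttcct
Gclm, chr2:213031953-213031981, minus strand: tggaagacaaTGACTAAGCagaaaccgca
Prdx1, chr5:135383761-135383789, minus strand: cggcggggtaTGACTCAGCgctttccctg
Gpx2, chr6:101230028-101230056, plus strand: attcccagaaTGACTTAGCgaaaccaggt
Txnrd1, chr7:22755964-22755992, plus strand: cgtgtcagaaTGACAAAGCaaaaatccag

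Cell types were compared within WT rats. At 9 weeks, 11 of 48 members were higher in basal than in mature luminal cells and 7 were lower, where 12.3% and 8.58% of all genes were. With the library number as a block, which the correlation of same-numbered libraries of a genotype calls for, 28 members passed, 17 of them higher, where 38.1% of all genes passed. The count was 11 without mature luminal library 1 and 10 without mature luminal library 2. Marker sums of other cells also separated WT basal from mature luminal libraries, and their part was not tested. Myeloid markers summed to 148 to 379 against 921 to 1480 CPM, and endothelial markers to 222 to 601 against 175 to 198 CPM. The 15 stress genes of dissociation summed to 19300 to 23800 against 46100 to 49800 CPM. Lymphoid and erythroid sums were lower and proliferation genes higher in basal libraries, while fibroblast, Schwann cell and adipocyte sums overlapped. Among the peroxidases, Gpx7, a peroxidase of the endoplasmic reticulum, had 59.96 and 57.9 CPM in basal libraries, 6.22, 5.54, 3.395 and 4.70 CPM in LP and 3.46 and 3.66 CPM in mature luminal libraries (log2 fold change 4.05 ± 0.76, adjusted p = 0.00242 for basal over mature luminal). Gpx8 had 58.1 and 39.8 CPM in basal, 6.52, 5.97, 5.69 and 4.36 in LP and 5.84 and 4.77 in mature luminal libraries (log2 fold change 3.21 ± 0.81, adjusted p = 0.013). Gpx2, the gastrointestinal glutathione peroxidase, had 253 and 262 CPM in basal, 39.9, 21.2, 38.8 and 13.8 in LP and 42.0 and 16.3 in mature luminal libraries (log2 fold change 3.14 ± 0.58, adjusted p = 0.0022). For all 3 genes, both basal libraries lay above every luminal one. Gpx3 ran the other way, with 29.7 and 132 CPM in basal, 140.1, 293, 187 and 286 in LP and 268 and 609.9 in mature luminal libraries (log2 fold change -2.44 ± 0.82, adjusted p = 0.0492), and its basal libraries lay below both mature luminal ones.

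Among the transferases, the mu-class gene Gstm2 had 264 and 159.8 CPM in WT basal libraries, 15.7, 14.9, 10.1 and 12.4 in LP and 7.23 and 11.5 in mature luminal libraries (log2 fold change 4.5 ± 0.80, adjusted p = 0.00178). Its relative Gstm5 had 57.0 and 25.2 CPM in basal, 6.00, 2.99, 6.82 and 2.57 in LP and 4.31 and 2.98 in mature luminal libraries (log2 fold change 3.49 ± 0.76, adjusted p = 0.00545). Gstp1, the pi-class transferase, had 709 and 1635 CPM in basal, 123, 149, 119 and 120.0 in LP and 139 and 208 in mature luminal libraries (log2 fold change 2.76 ± 0.39, adjusted p = 0.000455). In all of these, basal libraries stood above the luminal ones without overlap. Of the 3 microsomal transferases, Mgst1 and Mgst3 had the opposite order and Mgst2 overlapped, at 39.2 and 50.2 CPM in basal and 22.1 and 58.0 CPM in mature luminal libraries. Mgst1 was at 189 and 140.4 CPM in basal, 324, 327, 371 and 313 in LP and 597 and 620.3 in mature luminal libraries (log2 fold change -1.89 ± 0.23, adjusted p = 0.000219). Mgst3 had 39.1 and 28.5 CPM in basal, 32.2, 36.9, 35.2 and 38.8 in LP and 60.7 and 71.1 in mature luminal libraries (log2 fold change -0.96 ± 0.28, adjusted p = 0.0268). Gstt1, of the theta class, had 4.48 and 9.50 CPM in basal, 8.96, 8.00, 7.62 and 9.93 in LP and 13.5 and 17.02 in mature luminal libraries (log2 fold change -1.13 ± 0.34, adjusted p = 0.0298). Both mature luminal libraries lay above every basal and LP library for all 3.

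The last enzyme of glutathione synthesis and the enzyme that recycles glutathione also separated these cells. Gss had 207 and 151 CPM in WT basal libraries, 29.7, 22.6, 28.5 and 18.3 in LP and 33.9 and 23.8 in mature luminal libraries (log2 fold change 2.63 ± 0.32, adjusted p = 0.000196). Gsr, glutathione reductase, had 60.7 and 51.1 CPM in basal, 114, 86.9, 135 and 96.9 in LP and 154 and 125 in mature luminal libraries (log2 fold change -1.32 ± 0.26, adjusted p = 0.00333). Gss was thus high and Gsr low in basal libraries, without overlap with mature luminal ones. Nfe2l2 had 255 and 316 CPM in basal, 180.4, 222, 148 and 200.4 in LP and 104 and 104 in mature luminal libraries (log2 fold change 1.46 ± 0.30, adjusted p = 0.00399). Prdx4 had 184 and 138 CPM in basal, 236, 149, 296 and 150.4 in LP and 545 and 334 in mature luminal libraries (log2 fold change -1.45 ± 0.42, adjusted p = 0.025). Sod1, the cytosolic superoxide dismutase, had 127 and 93.7 CPM in basal, 153, 107, 172 and 106 in LP and 266 and 207 in mature luminal libraries (log2 fold change -1.10 ± 0.33, adjusted p = 0.0282). Nfe2l2 was highest in basal libraries, and Prdx4 and Sod1 in mature luminal ones. Txnrd3 (1.19), Prdx1 (0.71) and Gpx1 (0.67) were also called higher in basal cells.

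WT LP compared with WT basal cells gave 3 members higher and 14 lower, where 13% and 17.9% of all genes were, and 27 members and 50% of all genes passed with the number as a block. Mgst1 (1.02 ± 0.21), Cat (1.02 ± 0.28) and Gsr (0.95 ± 0.23) were the members higher in LP, with Cat at 186, 228, 191 and 222 CPM in LP and 115 and 88.8 CPM in basal libraries. The largest negative values were those of Gstm2 (-4.0), Gpx7 (-3.57), Gstp1 (-3.20), Gpx2 (-3.18), Gstm5 (-3.16), Gpx8 (-3.12), Gss (-2.85) and Gstm7 (-2.22), the last a mu-class gene at 1.56, 2.14, 1.53 and 1.28 CPM in LP and 10.1 and 5.10 CPM in basal libraries. WT LP compared with WT mature luminal cells gave no member higher and 2 lower, where 5% and 5.97% of all genes were: Mgst1 (log2 fold change -0.87 ± 0.19, adjusted p = 0.0212) and Mgst3 (log2 fold change -0.88 ± 0.24, adjusted p = 0.0327). With the number as a block 17 members passed, 6 higher and 11 lower, where 34.4% of all genes passed. Without the block, the count of 2 fell to 0 without WT Cd49b+ library 2, WT PNA+ library 2 or either mature luminal library, and to 1 without WT Cd49b+ library 1. The 3 comparisons share groups, so their lists are not independent. Both comparisons with LP count Cd49b+ and PNA+ libraries of the same number as separate samples, with or without the block. Those WT libraries deviated together (r = 0.911), and neither comparison was repeated with them summed. Endothelial markers summed to 581 to 1120 CPM in WT LP, 222 to 601 in basal and 175 to 198 in mature luminal libraries. In the same order, adipocyte markers summed to 410 to 519, 132 to 194 and 194 to 247 CPM. Myeloid markers summed to 418 to 763, 148 to 379 and 921 to 1480 CPM, and the part of these markers was not tested.

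At 4 weeks, WT basal cells had 11 members higher and 8 lower than WT luminal cells, among 48 tested, where 13.8% and 9.73% of all genes were. Gsta1 had 126, 218 and 280.0 CPM in basal and 3.76, 3.21 and 2.71 CPM in luminal libraries (log2 fold change 6.11 ± 0.54, adjusted p = 8.75e-06). Gpx7 had 94.7, 59.1 and 47.5 CPM in basal and 8.41, 2.67 and 2.95 in luminal libraries (log2 fold change 3.95 ± 0.59, adjusted p = 0.000325). Gstp1 had 1166, 729.8 and 630.0 CPM in basal and 147, 101 and 97.8 in luminal libraries (log2 fold change 2.96 ± 0.47, adjusted p = 0.000517). Every basal library stood above every luminal one for each of these genes. Gpx8 (107, 69.9 and 69.3 against 20.0, 10.7 and 7.17 CPM), Gstm5 (53.1, 44.1 and 40.9 against 9.96, 6.63 and 7.09 CPM) and Gss (142, 264 and 214 against 41.8, 31.4 and 35.4 CPM) did so too, with log2 fold changes of 2.80 ± 0.54, 2.64 ± 0.43 and 2.61 ± 0.34. The same held for Gstm2 (173, 198 and 167 against 34.1, 29.4 and 47.4 CPM) and Gstm7 (7.69, 8.63 and 6.92 against 2.49, 1.34 and 2.59 CPM), at 2.36 ± 0.45 and 1.95 ± 0.49. Hmox1, Nfe2l2 and Txnrd3 were the other members called higher in basal cells. The count of 19 fell to 12 without WT luminal library 2. In WT basal against luminal libraries, 8 fibroblast markers summed to 1210 to 6040 against 91 to 393 CPM. Schwann cell markers summed to 978 to 2440 against 294 to 618 CPM, and endothelial markers to 195 to 265 against 19 to 59.7 CPM. Myeloid markers (91.9 to 165 against 753 to 1030 CPM) and adipocyte markers (10.9 to 14 against 41.7 to 57 CPM) ran the other way. The part of these markers was not tested.

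Other transferases were lower in basal than in luminal cells of 4 weeks, and the classes did not split as wholes. Gsta4, of the same alpha class as Gsta1, an enzyme that acts on the lipid aldehyde hydroxynonenal, had 7.64, 2.68 and 4.95 CPM in WT basal and 84.8, 73.2 and 79.6 CPM in WT luminal libraries (log2 fold change -3.87 ± 0.59, adjusted p = 0.000389). The theta-class gene Gstt3 had 10.8, 14.8 and 11.9 CPM in basal and 134, 119 and 88.9 in luminal libraries (log2 fold change -3.09 ± 0.36, adjusted p = 5.77e-05). Gstz1, the zeta-class enzyme of tyrosine breakdown, had 19.3, 23.5 and 21.4 CPM in basal and 74.8, 86.9 and 97.5 in luminal libraries (log2 fold change -1.93 ± 0.30, adjusted p = 0.000483). These groups did not overlap. Gstt1 (8.88, 4.91 and 6.36 against 25.9, 20.0 and 20.9 CPM) and Gstt2 (7.92, 2.98 and 2.53 against 17.6, 13.3 and 11.1 CPM) had log2 fold changes of -1.64 ± 0.43 and -1.56 ± 0.45. Mgst1 (126, 112 and 93.3 against 502, 314 and 201 CPM), Mgst3 (30.9, 17.6 and 15.8 against 78.4, 60.4 and 69.0 CPM) and Gsr (49.4, 61.2 and 52.7 against 112, 161 and 142 CPM) had values of -1.52 ± 0.49, -1.60 ± 0.51 and -1.27 ± 0.31. The luminal libraries of 4 weeks were not split into LP and mature luminal cells, so this is not the same contrast as at 9 weeks. Called in both contrasts were 12 members, which is 12 of the 18 called at 9 weeks and of the 19 called at 4 weeks, and each had the same direction: Gpx7, Gpx8, Gss, Gstm2, Gstm5, Gstp1, Nfe2l2 and Txnrd3 were higher in basal cells, and Gsr, Gstt1, Mgst1 and Mgst3 lower. Both contrasts set basal against luminal cells, and the share of all genes called in both was not counted. The overlap is therefore not shown to be particular to the members. In the E2 experiment, where 2.45% of all genes passed between basal and luminal cells, Gstp1 was the member that did (log2 fold change 1.95 ± 0.42, adjusted p = 0.0429), at 88.7 to 393 CPM in 6 basal and 38.1 to 113 CPM in 6 luminal libraries, which overlapped, and 2 members and 2.68% of all genes passed with the animal as a block. Leaving out each of the 12 libraries in turn lost the call of Gstp1 in 11 cases. Endothelial markers summed to 204 to 572 CPM in basal and 32.8 to 155 CPM in luminal libraries of that experiment, and their part was not tested.

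**Figure D2:**
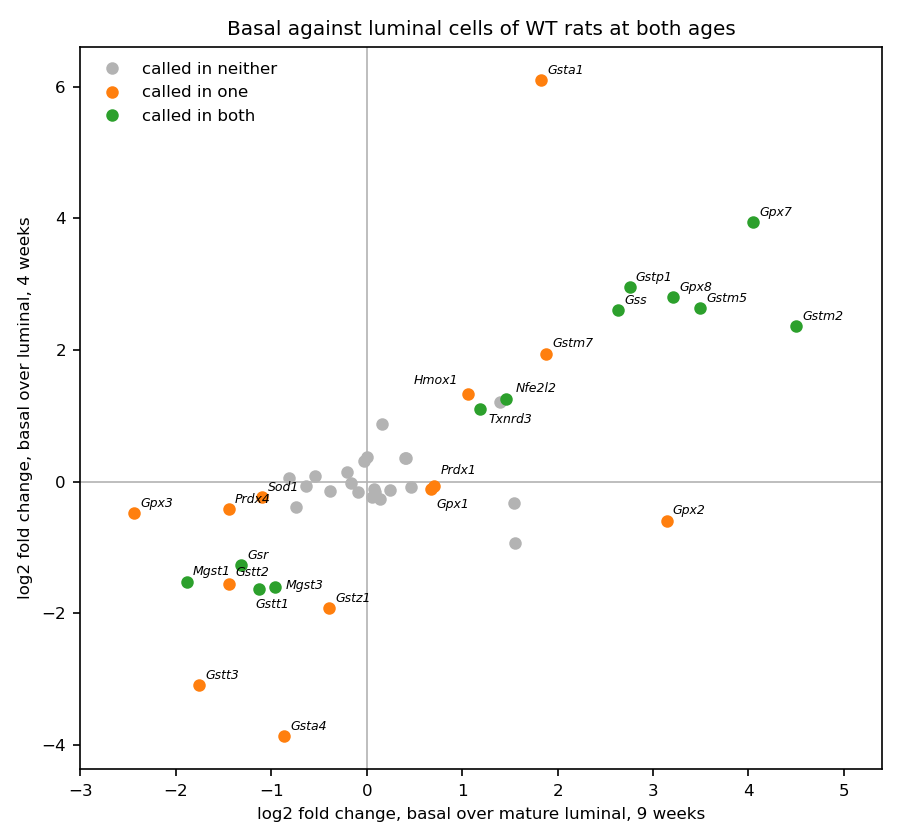
Log2 fold changes of 47 members between basal and mature luminal cells of WT rats at 9 weeks (horizontal axis) and between basal and luminal cells of WT rats at 4 weeks (vertical axis), with members called at an adjusted p under 0.05 in both contrasts in green and in either alone in orange. The 12 members called in both lie in the quadrants where both changes have the same sign, and Gsta1 stands highest on the vertical axis at 6.11. The same overlap was not counted over all genes.

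At 4 weeks, edgeR's test called no gene between genotypes in basal cells (310 genes, 2.57% of all, and 7 members at an unadjusted p under 0.05) or in luminal cells (435 genes, 3.6%, and 6 members), and DESeq2's Wald test called no member. KO lay wholly above WT for no member and below for 2 in basal cells, where 3.3% and 6.28% of all genes did, and above for 10 and below for 1 in luminal cells, where 5.77% and 5.64% did. In basal libraries, 9 basal markers summed to 16500 to 19600 CPM in KO and 14100 to 16100 CPM in WT, 10 endothelial markers to 71.4 to 183 and 195 to 265 CPM, and 7 hormone-sensing luminal genes to 161 to 189 and 207 to 267 CPM, and their part was not tested. No marker sum separated the genotypes in luminal libraries. The median log2 fold change of the members was 0.65 in basal cells, beside 0.02 over all genes, and 0.40 in luminal cells, beside -0.10. These medians did not reflect an even rise. Members held 1.65% of the counts of KO basal library 1, 1.01% in KO basal library 2 and 1.21% to 1.30% in WT basal libraries. In luminal libraries they held 1.24%, 0.881% and 0.79% in KO and 0.998%, 0.776% and 0.743% in WT. In basal cells, Gsto1, an omega-class transferase, had 133 and 33.8 CPM in libraries labelled KO and 29.8, 38.4 and 33.6 CPM in those labelled WT (1.31 ± 0.49). Gstk1, the kappa-class transferase of mitochondria, had 42.6 and 15.9 CPM in KO and 18.5, 10.3 and 10.7 CPM in WT (1.17 ± 0.49). Library 1 of the KO group was the high one for both, and without it the values were 0.06 for Gsto1 and 0.34 for Gstk1. Gclc had 57.2 and 64.3 CPM in KO and 77.9, 164 and 178 CPM in WT (-1.17 ± 0.47), and Cat had 143 and 169 against 252, 271 and 259 CPM (-0.71 ± 0.33), both without overlap and lower in KO. In luminal cells, Gstm2 had 113, 108 and 60.9 CPM in KO and 34.1, 29.4 and 47.4 CPM in WT (1.30 ± 0.43), and Gstm5 had 22.2, 17.5 and 9.99 against 9.96, 6.63 and 7.09 CPM (1.03 ± 0.41), with every KO library above every WT one. Cat had 166, 204 and 192 CPM in KO luminal and 395, 319 and 209 CPM in WT luminal libraries (-0.75 ± 0.29), and Gclc had 65.6, 151 and 81.2 against 239, 126 and 141 CPM (-0.79 ± 0.41).

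In the libraries labelled WT at 6 weeks, Nqo1, Hmox1 and the subunit genes of the enzyme that begins glutathione synthesis, Gclc and Gclm, stood at high levels, while Gss, the synthetase of the next step, had 102, 92.5 and 126 CPM in basal libraries, below the 142, 264 and 214 CPM of 4 weeks. In basal libraries, the members together held 3.49% to 4.04% of all counts in WT and 0.982% to 1.27% in KO, while the basal libraries of 4 weeks held 1.01% to 1.65%. Much of the WT share was Hmox1, with 262497, 272175 and 180636 of the 12463250, 16390460 and 7985619 counts of the WT basal libraries. Hmox1 had 20585, 17664 and 25159.5 CPM in WT basal libraries of 6 weeks and 3496, 4419.6 and 4728 CPM in those of 4 weeks, and 5276 and 8473 CPM in WT luminal libraries of 6 weeks and 2760.3, 1384 and 1275 CPM in those of 4 weeks. Nqo1 had 1278, 2027 and 1453 CPM in WT basal and 586 and 287 CPM in WT luminal libraries of 6 weeks. In every other library of 4 and 6 weeks it had 28.6 to 97.3 CPM. The 5 WT libraries of 6 weeks lay above the other 15 for 7 of 48 members, namely Gclc, Gclm, Gpx2, Hmox1, Nqo1, Srxn1 and Txnrd1, where 2.19% of all genes did, and below them for Gstk1 and Prdx4, where 2.38% did. These counts were made after the values were seen.

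Between WT basal libraries of 6 and 4 weeks, 10 members were higher at 6 weeks and 5 lower, where 4.82% and 5.68% of all genes were. Nqo1 changed by 5.61 ± 0.52 (adjusted p = 1.56e-05) and Hmox1 by 2.33 ± 0.44 (adjusted p = 0.00395). Gclm had 1498, 889 and 1586 CPM at 6 weeks and 58.6, 51.0 and 57.0 CPM at 4 weeks (log2 fold change 4.58 ± 0.75, adjusted p = 0.0017). Gclc had 3039, 1939.6 and 849 against 77.9, 164 and 178 CPM (log2 fold change 3.80 ± 0.52, adjusted p = 0.000678). Both subunits of the enzyme that begins glutathione synthesis were thus higher in every library of 6 weeks. Srxn1 had 945, 893 and 444 CPM at 6 and 25.9, 86.2 and 52.2 CPM at 4 weeks (log2 fold change 3.80 ± 0.58, adjusted p = 0.00101). Gpx2 had 69.6, 141 and 152 against 8.83, 13.2 and 12.2 CPM (log2 fold change 3.4 ± 0.54, adjusted p = 0.00128). Thioredoxin, Txn1, had 760.4, 1007 and 2082 against 344, 247 and 301 CPM (log2 fold change 2.11 ± 0.57, adjusted p = 0.0259). For all 3, the lowest library of 6 weeks lay above the highest of 4 weeks. Prdx1 had 1617, 3171 and 3168 against 607, 671 and 568 CPM (log2 fold change 2.11 ± 0.63, adjusted p = 0.04), and Gstm1 (2.01) and Prdx6 (1.35) completed the 10.

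Members lower in WT basal libraries of 6 weeks were mostly at low levels. Gstt2, of the theta class, had 0, 2 and 0 counts (0, 0.130 and 0 CPM) at 6 weeks and 7.92, 2.98 and 2.53 CPM at 4 weeks, and its fitted fold change depends on the prior count and is not given. Gpx3 had 1.96, 7.98 and 0.418 CPM at 6 weeks and 17.5, 58.1 and 48.6 CPM at 4 weeks (log2 fold change -3.55 ± 0.95, adjusted p = 0.0259). Gstt1 had 0.314, 1.88 and 0.139 against 8.88, 4.91 and 6.36 CPM (log2 fold change -3.03 ± 0.75, adjusted p = 0.0181). The groups did not overlap for any of these. Gsta4 had 1.25, 0.714 and 0 against 7.64, 2.68 and 4.95 CPM (log2 fold change -2.85 ± 0.79, adjusted p = 0.0291), and Prdx4 27.1, 45.8 and 6.13 against 154, 106 and 98.7 CPM (log2 fold change -2.17 ± 0.56, adjusted p = 0.0209). By role, 3 of 7 peroxiredoxins and sulfiredoxin and 2 of 4 genes of glutathione synthesis and reduction were higher, while 3 of 16 cytosolic transferases tested were lower and 1 was higher.

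Between WT luminal libraries of 6 and 4 weeks, 2 members were higher and 3 lower, where 1.19% and 1.92% of all genes were. Nqo1 (log2 fold change 3.34 ± 0.49, adjusted p = 0.00354) and Hmox1 (log2 fold change 1.93 ± 0.46, adjusted p = 0.0326) were higher. Gstt3 had 0.191 and 8.43 CPM at 6 weeks and 134, 119 and 88.9 CPM at 4 weeks (log2 fold change -4.71 ± 1.26, adjusted p = 0.0495), and Gstm2 had 10.7 and 4.14 against 34.1, 29.4 and 47.4 CPM (log2 fold change -2.32 ± 0.56, adjusted p = 0.034). Gsta1, also called lower, had 0 and 6 counts (0 and 0.460 CPM) at 6 weeks and 3.76, 3.21 and 2.71 CPM at 4 weeks. The count of called members moved with the libraries used. Without the libraries labelled KO luminal 2 and WT basal 3 it was 24 in basal cells (11 higher, 13 lower) and 16 in luminal cells (7 higher, 9 lower), where 17.9% and 15.7% of all genes passed. The basal log2 fold changes were then 5.56 for Nqo1, 4.31 for Gclm, 4.03 for Gclc, 3.94 for Srxn1, 3.09 for Gpx2, 2.06 for Hmox1, 1.85 for Prdx1 and 1.46 for Txn1. With WT basal library 3 alone left out, Txn1, Prdx1 and Gpx3 were not called (adjusted p = 0.113, 0.0932 and 0.056). It was 0 in luminal cells without WT luminal library 1 of 6 weeks, 2 without WT luminal library 1 of 4 weeks and 1 without WT luminal library 2 or 3 of 4 weeks. In basal cells it was 9 without WT basal library 1 or 2 of 4 weeks. Several marker sums separated the ages of WT libraries, and their part in the result was not tested. In basal libraries of 6 against 4 weeks, 9 basal markers summed to 5250 to 6720 against 14100 to 16100 CPM, 8 fibroblast markers to 77.9 to 557 against 1210 to 6040 CPM, 7 Schwann cell markers to 400.0 to 562 against 978 to 2440 CPM, and 10 endothelial markers to 58.4 to 119 against 195 to 265 CPM. In luminal libraries, 14 myeloid markers summed to 165 to 338 against 753 to 1030 CPM, fibroblast markers to 15.7 to 33.7 against 91.0 to 393 CPM, and 6 milk genes to 1930 to 4600 against 6050 to 12600 CPM. The 7 hormone-sensing luminal genes were higher at 6 weeks, at 399 to 627 against 207 to 267 CPM in basal and 2160 to 2550 against 904 to 1180 CPM in luminal libraries. The 15 stress genes of dissociation summed to 11000 to 16700 against 21600 to 29800 CPM in basal and 13100 to 15200 against 28900 to 39800 CPM in luminal libraries. Age and any difference in how the rats of each age were processed cannot be told apart.

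Of 51 other genes of the pathway, 12 were higher in WT basal libraries of 6 weeks and 3 lower, where 4.82% and 5.68% of all genes were, and 1 was higher and 1 lower in WT luminal libraries, where 1.19% and 1.92% were. Among them were Akr1b8, an aldo-keto reductase (8.84), Slc7a11, the cystine carrier (3.58), and Osgin1, an Nrf2 target (3.46). The ferritin genes Fth1 and Ftl1, the small Maf gene Mafg, and Pgd, Tkt and Taldo1 of the pentose phosphate pathway were also higher, and Txnip, the thioredoxin inhibitor, Idh2 and Ephx1 were lower. In WT luminal libraries, Akr1b8 (8.41) was higher and Idh2 lower. Nfe2l2 itself had 1216, 1564 and 1639 CPM in WT basal libraries of 6 weeks and 1027, 1132 and 1365 CPM in those of 4 weeks (log2 fold change 0.33 ± 0.31, adjusted p = 0.528). Keap1 had 96.1, 81.3 and 19.1 against 36.4, 52.1 and 33.3 CPM (log2 fold change 0.69 ± 0.57, adjusted p = 0.452). Neither regulator passed, and their libraries overlapped between the ages.

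**Figure D3:**
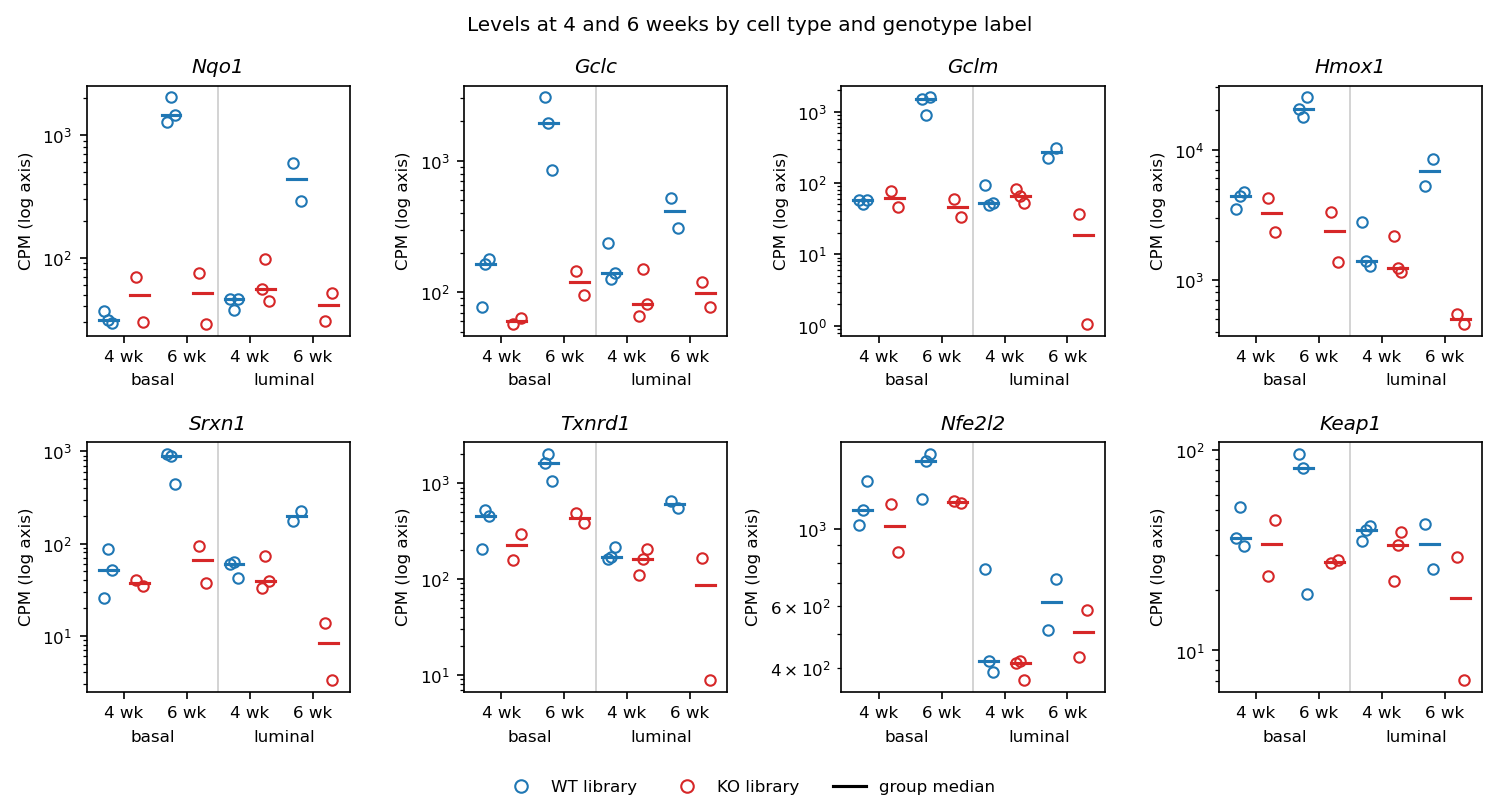
Levels (CPM, log axis) of 8 members in each library labelled 4 or 6 weeks, by cell type, with WT in blue, KO in red and a bar for the group median. Nqo1 lies at 287 to 2027 CPM in the 5 WT libraries of 6 weeks and at 28.6 to 97.3 CPM in the other 15, while Nfe2l2 of the WT libraries overlaps between the ages in each cell type.

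Between libraries labelled KO and WT at 6 weeks, fitted by themselves, edgeR's test called no gene in basal or in luminal cells. An unadjusted p under 0.05 was reached by 1072 genes (8.99%) and 17 of 47 members in basal cells, and by 1961 genes (16.4%) and 26 members in luminal cells. DESeq2's Wald test called 7 members in basal and 18 in luminal cells, where 3.09% and 12.5% of all genes were. Without KO luminal library 1, edgeR's test called 19 members in luminal cells, where 17.9% of all genes were, but KO luminal library 2, which stood apart, was then alone in its group and its spread was taken from the other groups of that age. Without KO luminal library 2, 0 genes were called. Nqo1 had 75.2 and 28.6 CPM in KO basal libraries, below every WT basal library (log2 fold change -4.84 ± 0.65, adjusted p = 0.138). Gclc had 144 and 95.7 CPM in KO basal libraries (log2 fold change -3.93 ± 0.65, adjusted p = 0.15). On the positive side, Gstt2 had 3.34 and 4.57 CPM in KO against 0, 0.130 and 0 CPM in WT basal libraries, and Gsta4 had 9.62 and 6.08 against 1.25, 0.714 and 0 CPM (log2 fold change 3.59 ± 1.07, adjusted p = 0.401). In luminal cells, Hmox1 had 545 and 457 CPM in KO and 5276 and 8473 CPM in WT (log2 fold change -3.77 ± 0.60, adjusted p = 0.121). Srxn1 had 13.6 and 3.28 against 174 and 225 CPM (log2 fold change -4.55 ± 0.79, adjusted p = 0.121). The KO libraries of both lay far below the WT ones. Gstm2 (54.8 and 39.3 against 10.7 and 4.14 CPM, 2.68 ± 0.61) and Mgst2, a microsomal transferase (99.9 and 379 against 17.2 and 34.5 CPM, 3.24 ± 0.75), were the positive values of lowest p. KO lay wholly above WT for 12 members and below for 17 in basal cells, where 23.5% and 17.6% of all genes did, and above for 26 and below for 8 in luminal cells, where 23.1% and 26.6% did. Without WT basal library 3, the basal counts were 20 above and 19 below (32.4% and 28.8% of all genes). Without KO luminal library 2 the luminal counts were 30 and 9 (41.5% and 33.2%), with 1 KO library against 2 WT libraries. The luminal values of Mgst2, Srxn1, Hmox1 and Gstm2 were then 1.94, -3.87, -3.66 and 2.90.

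A fit over all 20 libraries of 4 and 6 weeks, chosen after seeing the data, shares the estimate of spread and called 7 members in basal cells and 17 in luminal cells, where 1.73% and 8.77% of all genes passed. In basal cells, Nqo1 (log2 fold change -4.93 ± 0.61, adjusted p = 0.00213), Gclm (-4.84), Gclc (-4.02), Srxn1 (-3.54) and Hmox1 (-3.17) were lower in libraries labelled KO, and Gstt2 and Gsta4 higher. In luminal cells, Srxn1 (-4.54), Gclm (-3.82), Hmox1 (-3.78), Nqo1 (-3.42), Txnrd1 (-2.78) and Gclc (-2.06) were lower. Gclm had 36.8 and 1.05 CPM in KO and 227 and 311 CPM in WT luminal libraries, and Txnrd1 had 167 and 8.79 against 659 and 552 CPM. The lowest value of both is in KO luminal library 2. The 11 members called higher in luminal cells were Gpx7, Gpx8, Gsta1, Gstm2, Gstz1, Mgst1, Mgst2, Prdx2, Prdx3, Prdx4 and Txn2. For Gsta1, Gpx7 and Gpx8, WT luminal library 1 had 0 counts and WT luminal library 2 had 6, 11 and 21, so their fold changes are not given. Without the libraries labelled KO luminal 2 and WT basal 3, 16 members passed in basal cells (6 higher, 10 lower), where 6.8% of all genes did. KO luminal cells then had 1 library, so only values are given. Those of Srxn1, Nqo1, Hmox1, Gclm, Txnrd1 and Gclc were -3.88, -3.85, -3.67, -2.88, -1.87 and -1.78. Those of Gstm2, Gstz1, Mgst2, Prdx4 and Mgst1 were 2.88, 2.56, 1.94, 1.87 and 1.47. The basal count was 3 without KO basal library 1 and 2 without KO basal library 2. The luminal count was 2 without WT luminal library 1, 6 without KO luminal library 2 and 32 without KO luminal library 1.

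The genotype values of 6 weeks were set against those of 4 weeks by a test of the difference, in the same fit. In basal cells, 0.0398% of all genes passed, with Nqo1 as the member among them (-5.55 ± 0.73, adjusted p = 0.003), and the count was 0 without KO basal library 2 of 6 weeks, 2 without WT basal library 2 of 6 weeks and 3, with 0.337% of all genes, without the libraries labelled KO luminal 2 and WT basal 3. In luminal cells, 1.21% of all genes passed, with Srxn1 (-4.36 ± 0.86, adjusted p = 0.02), Nqo1 (-4.02 ± 0.71, adjusted p = 0.0154) and Hmox1 (-3.53 ± 0.68, adjusted p = 0.0174) at more negative values (KO over WT) at 6 than at 4 weeks. Luminal Nqo1 had 30.3 and 51.5 CPM in KO and 586 and 287 CPM in WT at 6 weeks, against 55.1, 97.3 and 43.9 and 45.9, 37.1 and 46.3 CPM at 4 weeks, so that the WT libraries of 6 weeks lay above the rest. Gsta1 was called with a positive difference (adjusted p = 0.0433). Its WT luminal libraries of 6 weeks had 0 and 6 counts, so the size of the difference depends on the prior count and is not given here. The call of Gsta1 was lost without KO luminal 2 and WT basal 3 and on leaving out 8 of the 10 luminal libraries singly. Without KO luminal 2 and WT basal 3, 5 members and 1.99% of all genes passed in luminal cells. The luminal count ranged from 0, without WT luminal library 1 of 6 weeks, to 13, without KO luminal library 1. It was 1 without KO luminal library 2, 2 without WT luminal library 3 of 4 weeks, and 9 without WT luminal library 2 of 6 weeks.

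Values that moved with the 6-week labels are given here, and their part in the result was not tested. The titles carried the number 5.9 for every WT rat of 6 weeks, 5.3 for KO replicate 1 and 5.9 for KO replicate 2, and the labels do not say what the number is. Summed CPM of 8 fibroblast markers was 77.9 to 557 in WT basal and 2060 to 3100 in KO basal libraries, with Col1a2 at 0 in both. That of 9 basal markers was 5250 to 6720 and 11300 to 13300 CPM, and that of 7 Schwann cell markers 400 to 562 and 2100 to 3470 CPM. In luminal libraries, 10 endothelial markers summed to 11.1 to 23.2 CPM in WT and 273 to 2020 in KO, and 6 adipocyte markers to 31.5 to 53.0 CPM in WT and 142 to 8580 in KO, where Tie1 and Emcn were at 0 in WT and Lep in both. The 6 milk genes summed to 1930 to 4600 CPM in WT and 9280 to 41000 CPM in KO luminal libraries, 14 myeloid markers to 165 to 338 and 1020 to 2900 CPM, fibroblast markers to 15.7 to 33.7 and 102 to 3890 CPM, Schwann cell markers to 214 to 345 and 392 to 860.0 CPM, and basal markers to 47.0 to 64.3 and 115 to 934 CPM. The 7 hormone-sensing luminal genes ran the other way, at 2160 to 2550 CPM in WT and 508 to 1950 CPM in KO luminal libraries and 399 to 627 and 230.0 to 345 CPM in basal libraries, as did 8 luminal markers in basal libraries (2870 to 4190 and 2440 to 2760 CPM), while adipocyte markers of basal libraries were 1.53 to 14.7 CPM in WT and 20.0 to 24.2 CPM in KO. The stress genes of dissociation summed to 11000 to 16700 CPM in WT basal and 11500 to 14500 CPM in KO basal libraries, and to 13100 to 15200 CPM in WT luminal and 14600 to 16600 CPM in KO luminal libraries, so that this sum overlapped between the labels.

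In the E2 experiment, edgeR's test called no gene for E2 against control in luminal cells (434 genes, 4.06% of all, and 4 members at an unadjusted p under 0.05) or in basal cells (200 genes, 1.9%, and 2 members). Values are listed as 2 ACI libraries and 1 BN library. Gsta1 had 61.3, 204 and 67.7 CPM in luminal libraries with E2 and 4.01, 5.31 and 4.40 CPM in control libraries. All 3 libraries with E2 lay above all 3 controls (4.56 ± 0.67, unadjusted p = 0.000515, adjusted p = 0.911). Cat had 268, 288 and 304 CPM with E2 and 68.2, 66.2 and 129 CPM in controls (log2 fold change 1.80 ± 0.32, adjusted p = 0.999), also without overlap. DESeq2's Wald test called these 2 members and no other, and 0.795% of all genes. Gpx1, the cytosolic glutathione peroxidase, had 119.8, 292 and 226 CPM with E2 and 537, 601 and 632 CPM in controls (log2 fold change -1.45 ± 0.42, adjusted p = 0.999), all below the controls. Hmox1 had 78.8, 179 and 1395 CPM with E2 and 514, 473 and 1014 CPM in controls (log2 fold change -1.17 ± 0.69, adjusted p = 0.999), lower in ACI and higher in BN with E2. Without ACI luminal library 1 with E2, which stood apart, the values of Gsta1, Cat, Gpx1 and Hmox1 were 4.81, 1.71, -1.20 and -0.62. The summed milk genes had 4540 to 7620 CPM in ACI controls, 5440 to 72000 CPM in ACI with E2, and 2920 and 75500 CPM in the BN control and E2 libraries. The stress genes of dissociation separated the treatments, with 76500 to 102000 CPM in ACI controls and 153000 CPM in the BN control, against 17600 to 64200 CPM in ACI with E2 and 67800 CPM in BN with E2. The part of either list in the result was not tested.

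**Figure D4:**
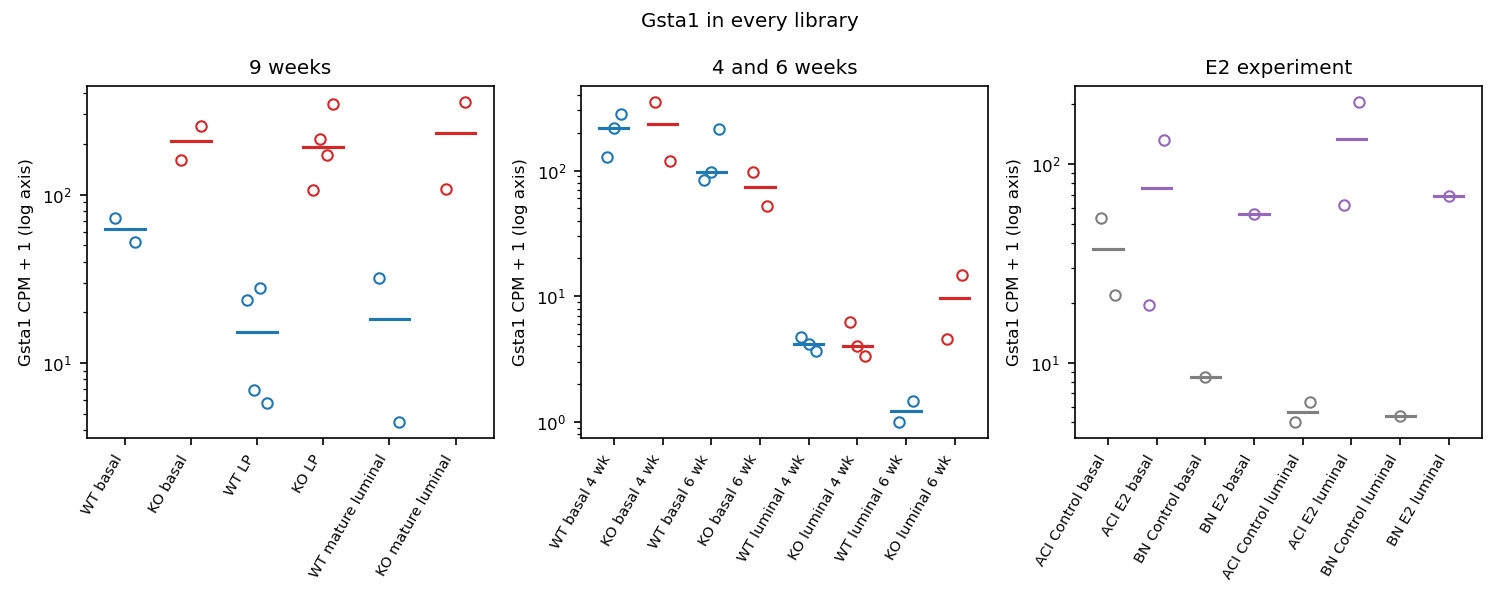
Gsta1 (CPM plus 1, log axis) in all 48 libraries, with 9 weeks on the left, 4 and 6 weeks in the middle and the E2 experiment on the right; WT is blue, KO red, control grey, E2 purple, and bars mark group medians. The KO libraries of 9 weeks lie above the WT ones in each population, basal libraries of 4 weeks (119 to 349 CPM) lie above luminal ones (2.32 to 5.26 CPM), and luminal libraries with E2 (61.3 to 204 CPM) lie above their controls (4.01 to 5.31 CPM).

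In basal cells with E2, Mgst1 had 38.5, 77.2 and 56.7 CPM with E2 and 31.9, 15.7 and 8.39 CPM in controls (1.81 ± 0.72), and Gclm had 83.6, 58.1 and 134 against 44.7, 48.9 and 49.1 CPM (0.93 ± 0.43). Gclc had 49.9, 86.8 and 96.6 CPM with E2 and 168, 328 and 251 CPM in controls (-1.64 ± 0.45), so the subunits of the same enzyme had values of opposite sign. Gstz1 had 0.0430, 8.42 and 17.6 against 21.2, 13.5 and 179.6 CPM (-2.41 ± 1.53), with the lowest value in ACI library 1 with E2, which stood apart. Without that library the values of Mgst1, Gclm, Gclc and Gstz1 were 2.16, 0.81, -1.45 and -1.95. In basal cells, milk genes summed to 529 to 1990 CPM with E2 and 32.3 to 105 CPM in controls, and Schwann cell markers to 380.0 to 650.0 and 1220 to 3270 CPM, and their part was not tested. The adjusted p was 1 for all 4, and DESeq2's Wald test called no member in basal cells.

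Between strains, edgeR's test called no gene in luminal cells (527 genes, 4.58% of all, and 6 members at an unadjusted p under 0.05) or basal cells (89 genes, 0.788%, and 1 member). DESeq2's Wald test called 2 members lower in ACI luminal cells, where 3% of all genes were called, and none in basal cells. Here 4 ACI libraries, 2 controls followed by 2 with E2, are compared with 2 BN libraries, control and E2. In luminal cells, Sod2 had 487, 319, 730.4 and 406 CPM in ACI and 2239 and 1415 CPM in BN (log2 fold change -1.93 ± 0.46, adjusted p = 0.933). Hmox1 had 514, 473, 78.8 and 179 CPM in ACI and 1014 and 1395 CPM in BN (log2 fold change -2.44 ± 0.71, adjusted p = 0.933). Both BN libraries lay above all 4 ACI libraries for each gene. The summed 14 myeloid markers lay the same way, at 909 and 1110 CPM in BN and 264 to 733 CPM in ACI luminal libraries, as did 8 luminal markers (25800 and 28200 against 8140 to 25100 CPM), while 7 hormone-sensing luminal genes (69.7 and 182 against 197 to 1140 CPM) and 10 proliferation genes (22.7 and 23.4 against 30.2 to 144 CPM) were lower in BN, and their part in the result was not tested. Without ACI luminal library 1 with E2, the values of Sod2 and Hmox1 were -2.22 and -1.94. Gstt3 had 6.35, 13.9, 75.4 and 130.1 against 4.20 and 3.56 CPM (2.70 ± 1.11), and Gsto1 had 17.1, 37.0, 18.2 and 36.7 against 13.6 and 15.2 CPM (0.90 ± 0.83). In basal cells, Hmox1 had 332, 526, 403 and 686 CPM in ACI and 1122 and 2514 CPM in BN (log2 fold change -1.82 ± 0.44, adjusted p = 1), again higher in both BN libraries. Sod1 had 24.4, 39.0, 53.5 and 76.0 against 152 and 82.0 CPM (-1.41 ± 0.60), Gsr had 41.1, 46.8, 89.0 and 54.7 against 32.4 and 29.1 CPM (0.85 ± 0.56), and Gsta1 had 52.2, 20.8, 18.4 and 131 against 7.46 and 55.1 CPM (1.26 ± 1.05). With 1 BN library per treatment, strain differences in the response to E2 were not tested.

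**Figure D5:**
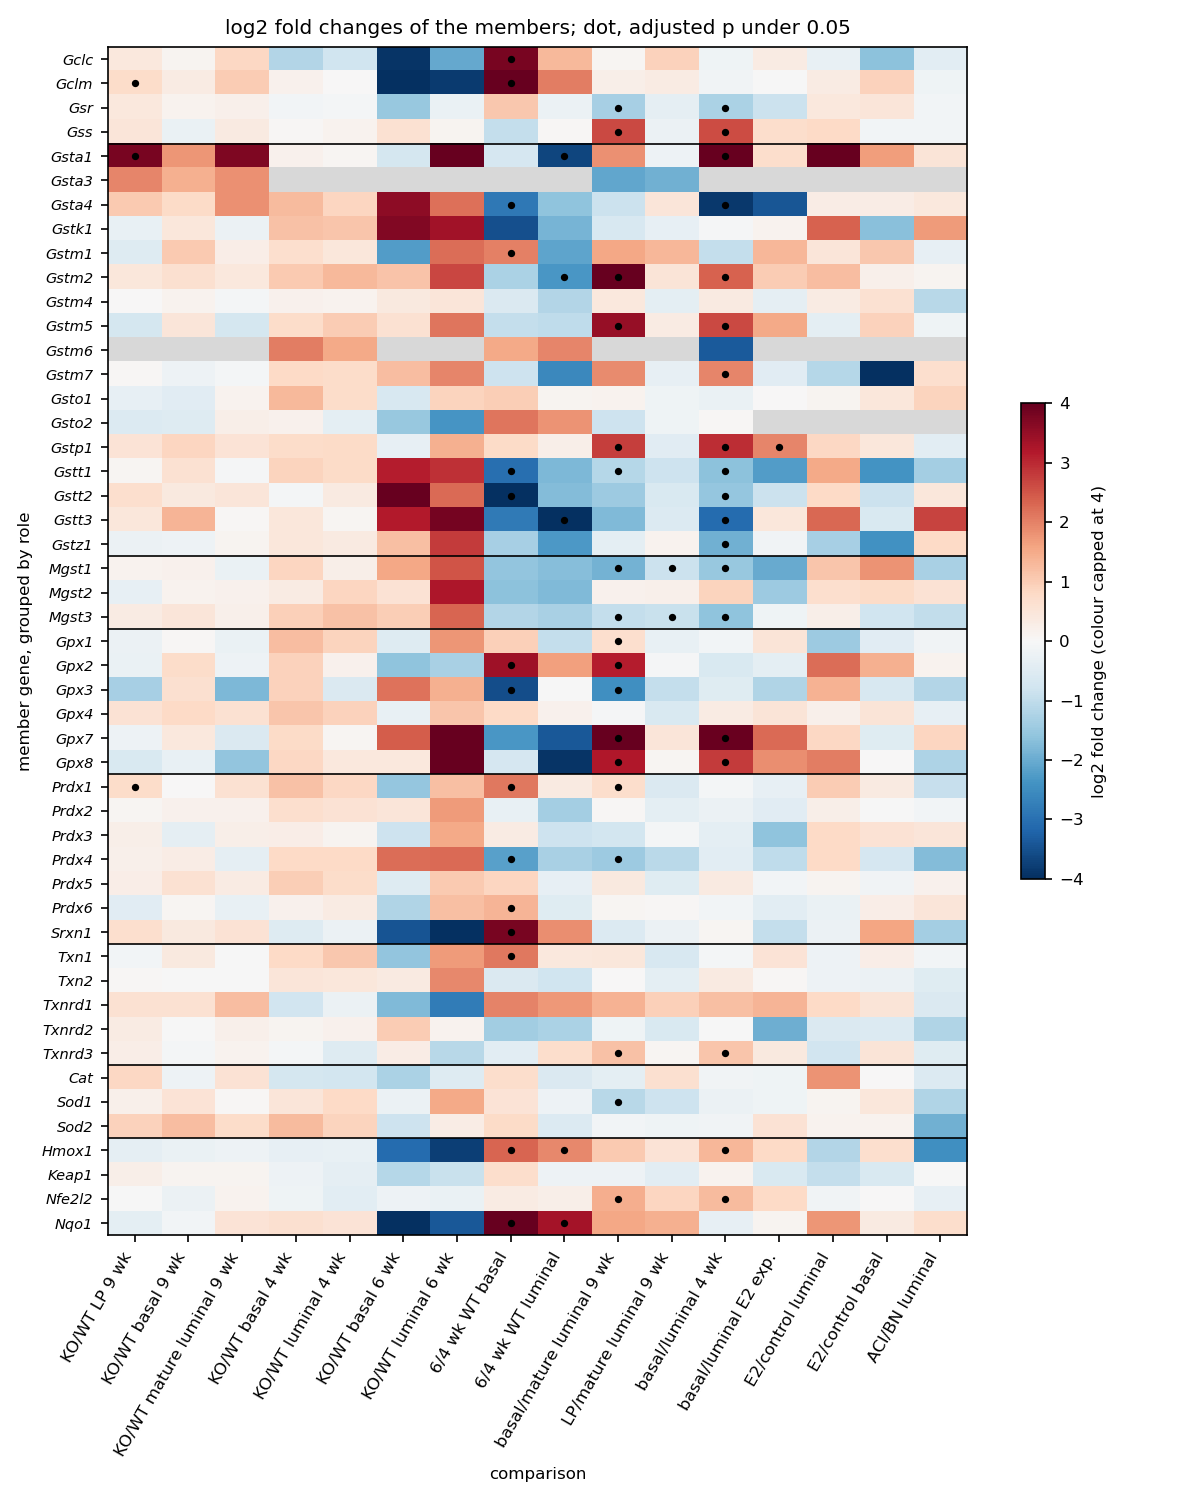
Log2 fold changes (color, capped at 4 in either direction, first-named group over second) of the members in 16 comparisons, grouped by role between horizontal lines, with a dot where the adjusted p was under 0.05 and grey where a member was not tested. The basal over luminal columns hold 18 dots at 9 weeks and 19 at 4 weeks, the column of WT basal libraries of 6 over 4 weeks holds 15, and the 7 genotype columns hold 3, all in LP of 9 weeks.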

How the data were processed

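RNA-seq counts of 48 libraries of sorted rat mammary cells were analysed. Per the labels and the study's methods, the authors sequenced single-end reads from low-input cDNA, aligned them to rn6 with STAR 2.5.1b and counted reads per RefSeq gene with htseq-count, and the deposited values are raw counts, not normalized, with whether strand was used not given in the sources used here. Reads left unassigned made up 47.1% to 77% per library and stayed out of library sizes. Total counts ran from 7985619 to 33859550 per library, lowest in the libraries of 6 weeks.

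Genes were filtered with filterByExpr, scaled by TMM and tested with edgeR 4.0.16 (quasi-likelihood, R 4.3.3, limma 3.58.1) with Benjamini-Hochberg adjustment over all genes tested and a threshold of 0.05. The 16 libraries of 9 weeks shared a fit, as did those of 4 weeks and those of 6 weeks. Comparisons of ages used 20 libraries together, and the E2 experiment was fitted per cell type with strain or treatment as covariate. The code was tested on simulated data. Alternatives were DESeq2 1.42.0, its size factors, no filter, libraries left out in turn, the compared libraries alone, and replicate or animal blocks. Where a group was left with 1 library, it was assumed to vary like the other groups. The 20-library genotype fit, the test of 6 against 4 weeks, the crossed block, and the fits without libraries that stood apart were chosen after seeing the data.

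The members and lists were chosen with earlier results of these data known. All members may be named. Values in every library are given, where a comparison had calls, for up to 8 called members per direction by size of change, and otherwise for the 2 members per direction of lowest p. Nfe2l2, Keap1, Nqo1, Hmox1, Gclc, Gclm, Txnrd1 and Srxn1 are always given for LP. Same-numbered libraries of a genotype at 9 weeks deviated together (r = 0.347 to 0.911 over 12 pairs of populations), which is the reason for printing the blocked counts. Among 28 pairs of replicates, 0 agreed within sampling noise. Peak calls on rn6 were not used here.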

Additional observations from a re-analysis of the deposited data

Results flagged for a closer look

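Within the 4 LP libraries of a genotype, a library stood far from the other 3 for 5 of 95 gene and group combinations, by Dixon's test of the ratio of its gap to the whole range at the 95% level, where chance alone gives about 1 in 20. In KO LP, Cd49b+ library 2 was high for Gpx8 (9.65 CPM, the next library at 2.34, ratio 0.861), Gstm1 (9.95 CPM, the next at 2.94, ratio 0.945) and Gstm5 (6.36 CPM, the next at 1.78, ratio 0.927). Gstm2 and Gpx7, like Gpx8 and Gstm5 called higher in WT basal cells, were not flagged. They had 42.9 and 9.95 CPM in this library, with the next at 15.6 and 2.93 CPM. The 9 basal markers summed to 329 to 2540 CPM in KO LP and 354 to 937 CPM in WT LP, and their part was not tested. PNA+ library 2 was high for Gsto2 (0.733 CPM, the next at 0.300, ratio 0.847). In WT LP, Cd49b+ library 2 was high for Gstp1 (149 CPM, the next at 123, ratio 0.876).

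The genotype effect differed between the libraries labelled 6 and 4 weeks for Nqo1 in basal cells (difference of log2 fold changes -5.55) and, in luminal cells, for Nqo1 (-4.02), Hmox1 (-3.53), Srxn1 (-4.36) and Gsta1 (4.95), by edgeR's quasi-likelihood test of the difference. For Gsta1, the WT luminal libraries of 6 weeks had 0 and 6 counts, so the size of its difference depends on the prior count. Its call was lost on leaving out 8 of the 10 luminal libraries singly, against 3 for Srxn1, 2 for Hmox1 and 1 for Nqo1 in luminal cells. Cdkn1b did not separate the labels at either age, and the test was chosen after seeing the data.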

How the results depend on the processing

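Values here are counts of members called, and the cause of a change was not tested unless the setting leaves fewer libraries. The share of all genes called moved with the setting too, so a higher count is not by itself a result about the members. With the replicate block it was 5.24% in LP and 34.4% in WT LP against mature luminal cells. For WT basal against mature luminal cells it was 38.1%, and for WT LP against basal cells 50%. With DESeq2's Wald test it was 3.09% and 12.5% in basal and luminal cells of 6 weeks, and 1.52% in KO against WT mature luminal cells. In luminal cells of the E2 experiment that test gave 0.795% for E2 and 3% for strain. For WT of 6 against 4 weeks without the libraries that stood apart, it was 17.9% in basal and 15.7% in luminal cells. Counts given here, in the next paragraph or in the Results without a share of all genes cannot be set against one. With DESeq2's Wald test the counts were 6 in LP (edgeR 3), 2 in KO against WT mature luminal cells (0), 12 in WT LP against mature luminal cells (2), 7 and 18 in basal and luminal cells of 6 weeks (0 and 0), 24 and 14 in WT basal and luminal cells of 6 against 4 weeks (15 and 5), 2 for E2 and 2 for strain in luminal cells (0 and 0), 7 for basal against luminal cells of the E2 experiment (1), 17 and 26 in the 20-library fit (7 and 17), and 6 and 8 for the difference of 6 and 4 weeks (1 and 4). Size factors of DESeq2 gave 6 in WT LP against mature luminal cells, and no filter gave 2 and 3 in basal and luminal cells of 6 weeks. The replicate block gave 5 in LP, 17 in WT LP against mature luminal cells, 28 in basal against mature luminal cells (18) and 27 in LP against basal cells (17), the animal block gave 2 in the E2 experiment, and the block changed no other count by over 1.5 times. Numbers of KO and WT libraries ran against each other within a population (r = -0.397 to -0.117). The block with crossed numbers, chosen from that spread, gave 12 in LP and 4 in mature luminal cells. Such a block absorbs the spread it was chosen from, so its higher counts are not evidence about the members. It also still counts Cd49b+ and PNA+ libraries as separate samples. PNA+ alone, Cd49b+ alone and summed LP libraries each gave 0. The compared libraries alone gave 8 in LP against mature luminal cells, 9 in basal against mature luminal cells and 12 in WT luminal cells of 6 against 4 weeks. The 20-library fit gave 7 and 17 at 6 weeks. Without the libraries that stood apart the counts were 24 and 16 for WT of 6 against 4 weeks, 16 in basal cells in the 20-library fit and 3 for the basal difference.

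Leaving out 1 library gave 0 to 7 in LP, 0 to 3 in LP against mature luminal cells, 10 to 15 in basal against mature luminal cells, 0 to 1 for the difference of LP and basal effects, 0 to 19 in luminal cells of 6 weeks, 12 to 18 in basal against luminal cells of 4 weeks, 9 to 13 and 0 to 7 in WT basal and luminal cells of 6 against 4 weeks, 0 to 1 in the E2 experiment, 2 to 9 and 2 to 32 in the 20-library fit, and 0 to 2 and 0 to 13 for the differences of 6 and 4 weeks. The log2 fold change of Nfe2l2 in LP lay between -0.19 and 0.11 on leaving out 1 library and turned positive at 0.00051 without KO Cd49b+ library 1, 0.11 without KO PNA+ library 1, 0.068 without WT Cd49b+ library 2, 0.011 without WT PNA+ library 2 and 0.069 in Cd49b+ libraries alone. Size factors of DESeq2 moved the median of all genes by -0.165 for WT basal cells of 6 against 4 weeks. Of the values of named members under all settings, 1359 kept direction and side of the threshold, 197 lost their call, 36 gained one and 5 reversed.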
